A study of Mus musculus with 6 samples.

Results

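The mitochondrial genome encodes 7 subunits of respiratory complex I, and their messages are described here in hearts of C57BL/6N male mice. The members are the rows of the deposited table whose name is mt-Nd1, mt-Nd2, mt-Nd3, mt-Nd4, mt-Nd4l, mt-Nd5 or mt-Nd6. All 7 were found among 25361 listed genes, and all 7 are among the 8531 genes with enough counts to be tested. The series compares 3 untreated control hearts with 3 hearts of mice given ISO+L-NAME for 6 weeks, to model the form of heart failure abbreviated HFpEF. All mice are labelled WT, and their stated age of 12 weeks is not tied to the start or the end of treatment. L-NAME blocks nitric oxide synthase, the labels do not spell out ISO, and they name no dose and no vehicle for the controls. Libraries read the 3′ end of polyadenylated RNA from whole heart tissue, and each held between 2217974 and 2637364 counts.

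Complex I oxidises NADH, passes the electrons to ubiquinone and pumps protons across the inner mitochondrial membrane. Its mitochondrially encoded subunits form the core of the membrane arm. ND1 lines the ubiquinone site, ND2, ND4 and ND5 are the antiporter-like pump subunits, and ND3, ND4L and ND6 lie between the ubiquinone site and the pumps. The messages are cut from long transcripts that span many genes. The mt-Nd6 message comes from the opposite strand to the other members, and mt-Nd4l and mt-Nd4 are known to stay joined on 1 molecule. In human cells the ND6 message lacks a poly(A) tail.

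By their listed counts, 4 of the 7 messages fell in treated hearts, mt-Nd4l most and then mt-Nd5, mt-Nd4 and mt-Nd1. The other 3, mt-Nd2, mt-Nd3 and mt-Nd6, did not pass the test on all counts. Within the mitochondrial genome the mixture of messages shifted. The shares of mt-Nd4l and mt-Nd5 fell, and that of mt-Nd2 rose. Complex I messages together took 53.8% ± 0.62 of mitochondrial counts in the control hearts, against 53.4% ± 0.34 after treatment (SD, n = 3).

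The genes lie on the mitochondrial chromosome in the order mt-Nd1 (2751 to 3707), mt-Nd2 (3914 to 4951), mt-Nd3 (9459 to 9806), mt-Nd4l (9877 to 10173), mt-Nd4 (10167 to 11544), mt-Nd5 (11742 to 13565) and mt-Nd6 (13552 to 14070, on the minus strand). Coordinates are those of the deposited table on GRCm39. Sequences are the GENCODE M21 transcripts of the same gene identifiers, made on GRCm38. For all 13 messages of the mitochondrial genome the start, end, strand and length are equal in both. Genes of the mouse mitochondrial genome have no introns.

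Pairs of members overlap, so reads at the joins cannot be given to 1 gene with certainty, and whether the counting used strand is not given in the sources used here. The overlapping ends are shown because mt-Nd4l and mt-Nd5, whose shares fell most on the log2 scale, each share bases with a neighbour. Capitals mark the 7 bases that mt-Nd4l and mt-Nd4 share on the same strand, and the 14 bases that mt-Nd5 and mt-Nd6 share on opposite strands.
mt-Nd4l end, MT:10138-10173, plus strand: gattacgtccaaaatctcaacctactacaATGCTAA
mt-Nd4 start, MT:10167-10202, plus strand: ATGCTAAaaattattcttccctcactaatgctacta
mt-Nd5 end, MT:13530-13565, plus strand: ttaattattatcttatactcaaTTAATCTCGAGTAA
mt-Nd6 end, MT:13552-13587, minus strand: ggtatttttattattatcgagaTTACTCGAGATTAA

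The kit primes on poly(A), so the last 60 bases are shown. They are those of the message with the largest decrease, the most abundant message and the message that gained share. For mt-Nd4l these are the last bases of the gene, not the end of a molecule joined to mt-Nd4. Capitals mark runs of 4 or more A.
mt-Nd4l, MT:10114-10173, plus strand: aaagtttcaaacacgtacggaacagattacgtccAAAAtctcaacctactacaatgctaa
mt-Nd4, MT:11485-11544, plus strand: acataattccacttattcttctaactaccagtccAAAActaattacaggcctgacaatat
mt-Nd2, MT:4892-4951, plus strand: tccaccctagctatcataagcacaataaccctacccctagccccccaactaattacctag
The mt-Nd4 message ends on a single T past its last full codon, an incomplete stop codon that a poly(A) tail is known to complete. The other members end on a full stop codon. The longest run of A is 4 bases in mt-Nd4l, 7 in mt-Nd4 and mt-Nd5, 8 in mt-Nd2 and 3 in mt-Nd6. A run of 6 or more A occurs in 4 of the 7 members and in 5 of all 13 messages. Base composition sets mt-Nd6 apart, with 28.1% G against 11.1% in mt-Nd4l. Whether these features bear on the counts was not tested.

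Levels are given as CPM, the count relative to a library size scaled by TMM, a method that centres most genes between libraries. Members are ordered by CPM per kilobase of listed length, although a 3′-end count is not built to grow with length. On this scale mt-Nd4 stood first in controls at 132340 ± 9686 CPM per kilobase (SD, n = 3). The next 2 were mt-Nd2 at 60559.9 ± 7626 and mt-Nd1 at 57539 ± 4954 CPM per kilobase. Their control ranges overlapped, and so did their treated ranges, so their order is not set beyond the spread. Below them came mt-Nd3 at 36341 ± 4845, mt-Nd4l at 18531 ± 1295, mt-Nd5 at 6156 ± 685 and mt-Nd6 at 27.5 ± 0.667 CPM per kilobase. Each of these was separated from its neighbours in both groups. Without division by length, mt-Nd5 stood above mt-Nd4l.

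In all, the 7 messages of a control heart summed to 328511, 358923 or 301615 CPM, and those of a treated heart to 212668, 233198 or 230571 CPM. Every treated heart lay below every control heart. The group means were 329683 ± 28672 and 225479 ± 11172 CPM (SD, n = 3).

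**Figure D1:**
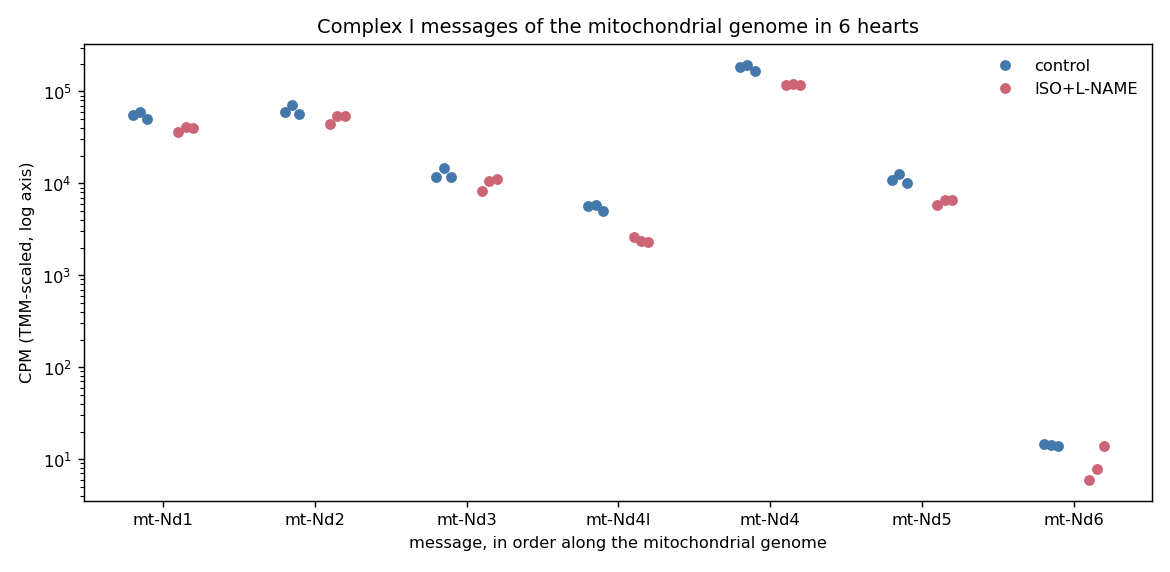
CPM on TMM library sizes (log axis) of each complex I message in the 3 control and 3 ISO+L-NAME hearts, 1 point per library. The treated points lie below the control points for 6 of 7 messages, and mt-Nd6 lies between 5.93 and 14.5 CPM, far under the rest.

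The comparison of all counts asks which messages changed against the other genes of the heart. By edgeR's quasi-likelihood test 4 of the 7 members were called lower, 0 higher and 3 were not called. Among all tested genes 2.68% were called lower and 3.41% higher. At an unadjusted p under 0.05, 7 members were lower and 0 higher. DESeq2 called 4 lower and 0 higher, and limma-voom 6 lower and 0 higher. For unadjusted p and for these other tools, the share of all tested genes was not counted, here or below. The median log2 change of the members was -0.64, against -0.01 for all tested genes. Groups did not overlap, with treated below control, for 6 of the 7, against 11.3% of all tested genes.

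Among the pump subunits, mt-Nd5 stood at 11005, 12574 and 10107 CPM in controls and at 5860, 6655 and 6604 CPM in treated hearts. The treated values all lay well under the lowest control. This is a log2 change of -0.82 ± 0.10 (SE; edgeR adjusted p = 1.81e-05). The mt-Nd4 message, the most abundant of the mitochondrial genome, stood at 183845, 194910 and 168338 CPM in controls and at 116241, 119100 and 116872 CPM in treated hearts. The treated hearts were closely alike and all below the controls. It fell by 35.6%, a log2 change of -0.64 ± 0.09 (edgeR adjusted p = 5.94e-05).

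The remaining pump message, mt-Nd2, stood at 60287.5, 71743 and 56553 CPM in controls and at 44019.8, 53928.5 and 53798 CPM in treated hearts. The groups did not overlap, but the highest treated hearts came close to the lowest control. The log2 difference of -0.31 ± 0.10 did not pass (edgeR adjusted p = 0.0827). It passed without control 3 (edgeR adjusted p = 0.0211), with no count filter (0.00461) and in limma-voom (adjusted p = 0.0438). It did not in DESeq2 (adjusted p = 0.175) or with any other library left out, where it was nearest 0 at -0.22 without control 2 (edgeR adjusted p = 0.245) and -0.22 without ISO+L-NAME 1 (0.289).

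The ubiquinone-site subunit message mt-Nd1 stood at 55902, 59331 and 49960.3 CPM in controls and at 35742, 40660.1 and 39926 CPM in treated hearts. The groups were separate. It fell by a log2 change of -0.51 ± 0.09 (edgeR adjusted p = 0.00136).

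The 3 small subunits between that site and the pumps gave the widest spread of sizes. The mt-Nd4l message stood at 5688, 5761 and 5062 CPM in controls and at 2583, 2348 and 2327 CPM in treated hearts. No treated heart came near the controls. Counts listed for it fell by 56.0%, a log2 change of -1.19 ± 0.09 (edgeR adjusted p = 2.21e-07). The mt-Nd3 message stood at 11768.5, 14590.4 and 11581 CPM in controls and at 8217, 10498 and 11031 CPM in treated hearts. Here the highest treated heart lay just under the lowest control. The log2 difference of -0.35 ± 0.11 did not pass (edgeR adjusted p = 0.0754). It passed without control 3 (edgeR adjusted p = 0.0340), with no count filter (0.00388) and in limma-voom (adjusted p = 0.0497). It did not in DESeq2 (adjusted p = 0.147), without control 2 at -0.24 (edgeR adjusted p = 0.248) or without ISO+L-NAME 1 at -0.23 (0.303).

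The mt-Nd6 message was close to the limit of this depth, with 32, 29 and 29 reads counted in the control libraries against 18, 20 and 36 after treatment. The controls were alike, and 1 treated heart lay at their level while the others lay below. Its log2 difference was -0.65 ± 0.28 (edgeR adjusted p = 0.212). Without ISO+L-NAME 3 the difference was -1.06 (edgeR adjusted p = 0.0348), and without ISO+L-NAME 1 it was -0.39 (edgeR adjusted p = 0.536), so single treated libraries set the value.

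Scaling sets the size of these changes. With total counts alone the median log2 change of all tested genes moved from -0.01 to 0.29, and 94.9% of the 1459 called genes were higher, against 56.0% of 520 with TMM. The same 4 members were called lower there, at -0.20 for mt-Nd1, -0.33 for mt-Nd4, -0.88 for mt-Nd4l and -0.51 for mt-Nd5. Of all 8531 tested genes, 74 were called lower at that scaling and 1385 higher. The uncalled mt-Nd2, mt-Nd3 and mt-Nd6 stood at -0.01, -0.05 and -0.35. With mitochondrial rows left out of the scaling, the members' median was -0.63.

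**Figure D2:**
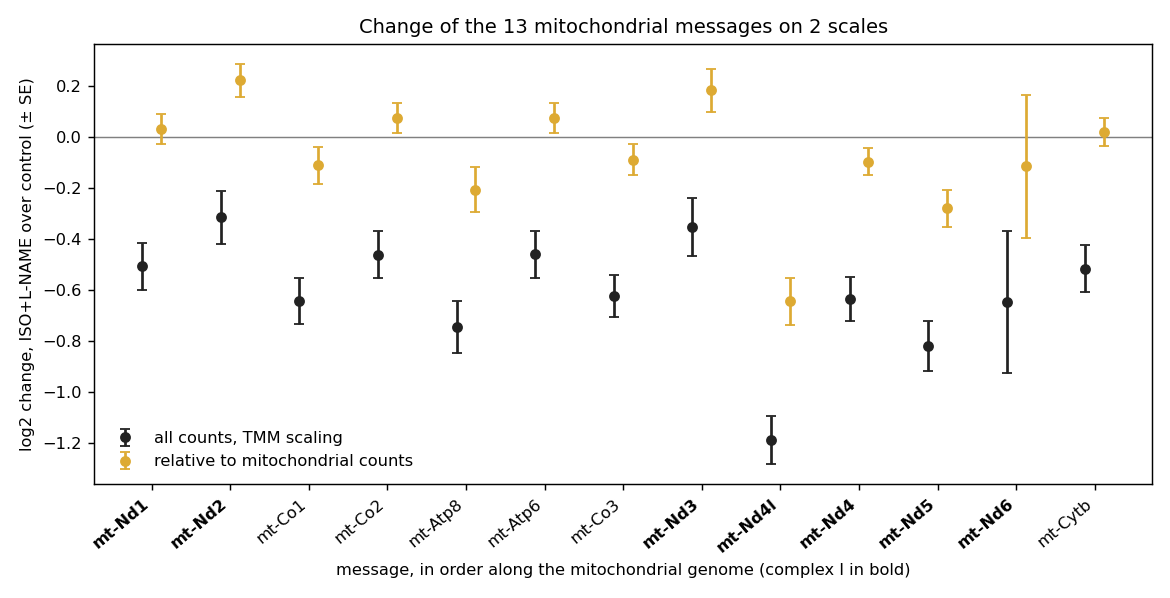
log2 change of ISO+L-NAME over control with its SE for the 13 messages in genome order, complex I names in bold, on all counts with TMM scaling (black) and relative to mitochondrial counts (yellow). On all counts each message lies below 0, and on the mitochondrial scale mt-Nd4l at -0.64 and mt-Nd2 at 0.22 stand farthest apart.

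The second comparison puts each message against the mitochondrial genome itself, with the summed counts of its 13 listed messages as library size. Mitochondrial counts made up 55.1% ± 1.53 of control and 46.8% ± 1.22 of treated libraries (SD, n = 3). Complex I messages alone took 29.6%, 30.8% and 28.5% of control libraries and 24.5%, 25.4% and 25.2% of treated libraries, without overlap. On this scale 2 members were called lower, 1 higher and 4 were not called. Of all tested genes, 0.363% were called lower and 47.7% higher, since the scale lifts nuclear genes, with a median log2 change of 0.53. Shares of the 13 messages sum to a fixed total, so a change in 1 moves the others.

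The mt-Nd4l share of the 3 control hearts was 0.933%, 0.872% and 0.891%, and that of the 3 treated hearts 0.653%, 0.535% and 0.538%. The groups were wide apart. The log2 change was -0.64 ± 0.09 (edgeR adjusted p = 4.53e-05), so counts listed for mt-Nd4l fell further than mitochondrial counts together. A molecule that keeps mt-Nd4l joined to mt-Nd4 has its 3′ end after mt-Nd4. Counts listed for mt-Nd4l may then not measure a separate message, and where those reads arise was not tested. The mt-Nd5 share was 1.80%, 1.90% and 1.78% in the control hearts, against 1.48%, 1.52% and 1.53% after treatment. It too fell without overlap, at -0.28 ± 0.07 (edgeR adjusted p = 0.00589).

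The mt-Nd2 share moved the other way, from 9.89%, 10.9% and 9.96% in controls to 11.1%, 12.3% and 12.4% in treated hearts. All treated hearts were above all controls. The log2 change was 0.22 ± 0.06 (edgeR adjusted p = 0.00955). The call was lost without control 1 (edgeR adjusted p = 0.0553), without ISO+L-NAME 2 (0.0549) and in DESeq2 (adjusted p = 0.0769). Against the messages of complexes III to V alone, which hold no member, the log2 changes were 0.21 for mt-Nd2, -0.65 for mt-Nd4l and -0.29 for mt-Nd5, with the same 3 calls.

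The largest share, that of mt-Nd4, was 30.2%, 29.5% and 29.6% in the control hearts, against 29.4%, 27.2% and 27.0% after treatment. ISO+L-NAME 1 lay just under the controls and the others lower. The log2 difference of -0.10 ± 0.05 did not pass (edgeR adjusted p = 0.138). Without ISO+L-NAME 1 it did, at -0.14 (edgeR adjusted p = 0.0186), and so did mt-Nd3 at 0.26 (edgeR adjusted p = 0.0119). With all libraries mt-Nd3 went from 2.06% ± 0.140 to 2.34% ± 0.239 and mt-Nd1 from 8.98% ± 0.186 to 9.18% ± 0.121 (SD, n = 3), both with overlap. Their log2 differences were 0.18 ± 0.08 and 0.03 ± 0.06 (edgeR adjusted p = 0.0729 and 0.657).

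The mt-Nd6 share averaged 0.00233% ± 0.000135 over the controls and 0.00216% ± 0.000914 over the treated hearts (SD, n = 3). The exact 95% interval of control 2 ran from 0.00146% to 0.00313% and that of ISO+L-NAME 3 from 0.00224% to 0.00444%. For the other 6 members the exact 95% interval of a share was at most 0.0823 percentage points to either side. Both cover counting error only.

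**Figure D3:**
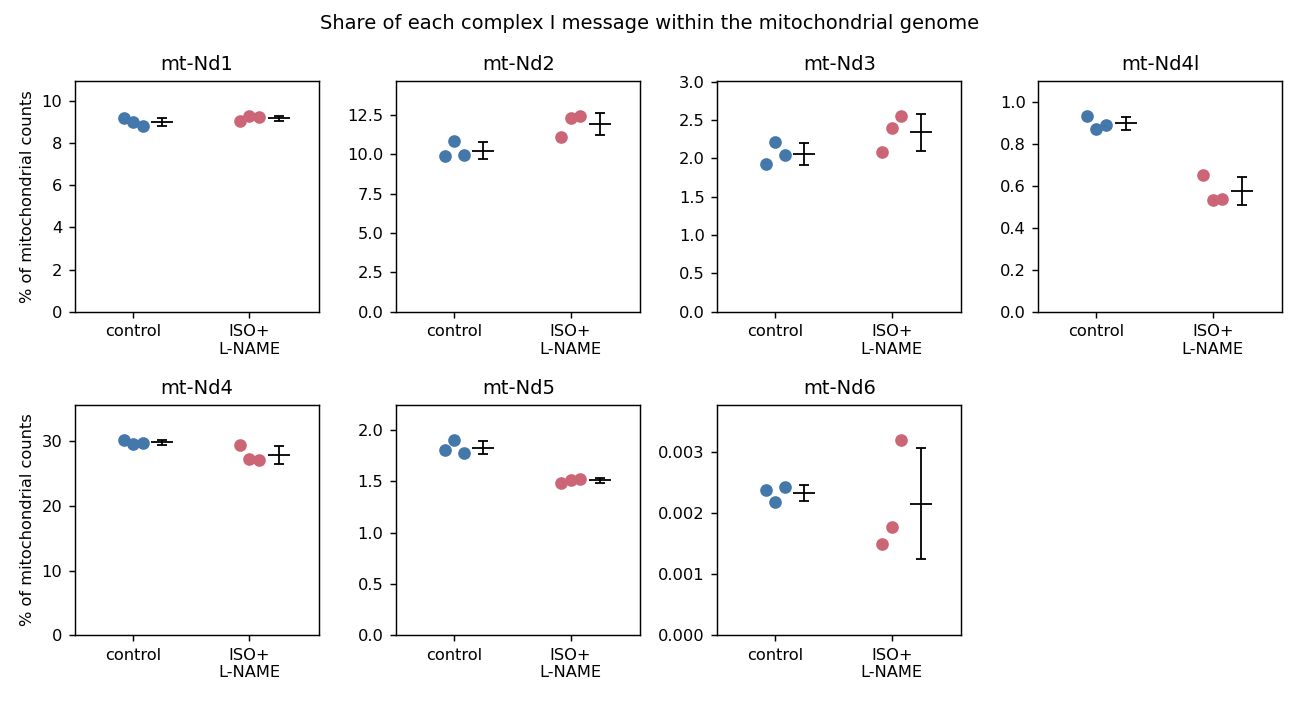
Share of each complex I message in mitochondrial counts (percent, axes from 0), 1 point per library, with the mean and SD of 3 libraries beside the points. Treated hearts lie below controls for mt-Nd4l, mt-Nd4 and mt-Nd5 and above them for mt-Nd2, and the groups overlap for mt-Nd1, mt-Nd3 and mt-Nd6. Of the complex III to V messages, not drawn, mt-Co1 and mt-Atp8 also lay below controls and mt-Co2 and mt-Atp6 above them.

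Ratios within a library do not depend on scaling. Between the joined genes, mt-Nd4l gave 0.0309, 0.0296 and 0.0301 counts per mt-Nd4 count in the control libraries, against 0.0222, 0.0197 and 0.0199 after treatment. Every treated ratio was below every control ratio. Reads of 1 joined molecule could fall in either gene, so this is a ratio of counts and need not compare separate messages. The exact two-sided permutation p was 0.1, the smallest that 3 against 3 can give, and 0.175 with Benjamini-Hochberg adjustment over 14 shares and ratios. That also holds for each share above without overlap. The mt-Nd6 count per mt-Nd5 count was 0.00128 ± 0.000118 and 0.00143 ± 0.000588 (SD, n = 3; exact permutation p = 0.9). Outside complex I, mt-Atp8 (7766 to 7969) and mt-Atp6 (7927 to 8607) also overlap on the plus strand. The mt-Atp8 share was 0.383%, 0.417% and 0.398% in the control libraries, against 0.343%, 0.339% and 0.358% after treatment. For mt-Atp6 it was 9.34%, 9.20% and 9.32%, against 9.57%, 9.77% and 10.0%. Counts of mt-Atp8 relative to mt-Atp6 were thus lower in every treated library. A fall of this kind was not limited to complex I. The mt-Atp8 to mt-Atp6 ratio was not tested.

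Complex I messages were set against those of complexes III to V, the cytochrome b, cytochrome oxidase and ATP synthase messages of the same genome. Their count ratio was 1.17, 1.19 and 1.13 in the control hearts, against 1.16, 1.14 and 1.14 after treatment. The groups overlapped (exact permutation p = 0.5). A p that misses the threshold does not show that the ratios are equal. All 6 messages of complexes III to V were called lower on all counts, with a median log2 change of -0.57. On the mitochondrial scale edgeR called 0 of them, with 1 lower and 0 higher at an unadjusted p under 0.05, DESeq2 called 0 and limma-voom 1 lower.

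**Figure D4:**
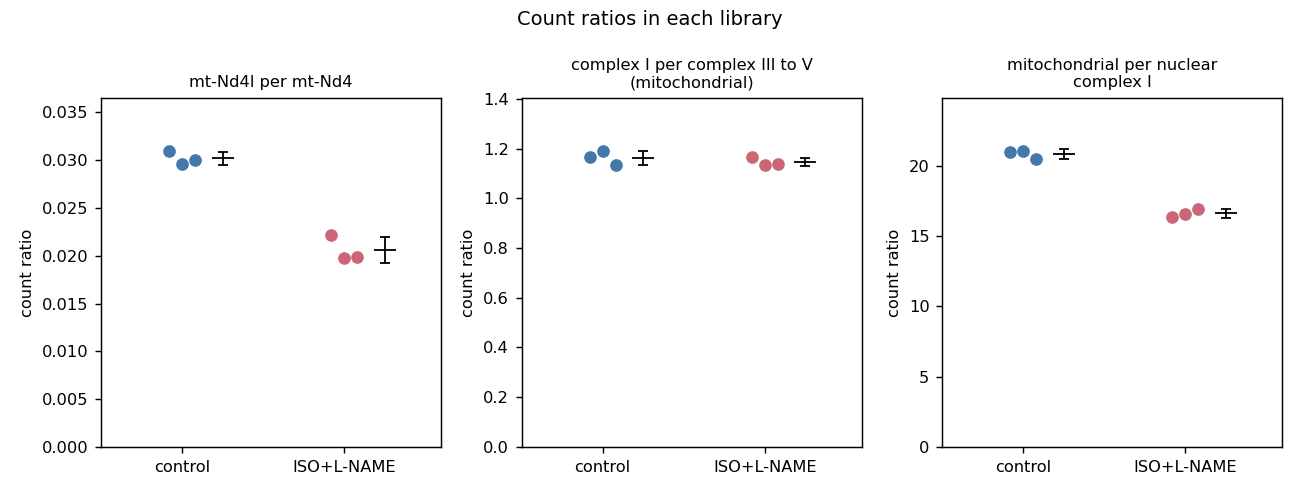
Count ratios per library (axes from 0), 1 point per library with the mean and SD of 3: mt-Nd4l per mt-Nd4, complex I per complex III to V messages, and mitochondrial per nuclear complex I messages. The outer panels show lower ratios in all treated hearts, and in the middle panel the groups overlap.

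The remaining subunits of complex I are made from nuclear genes. All 37 listed nuclear subunit genes were tested, and 8 were called lower, 0 higher and 29 were not called, with a median log2 change of -0.18. At an unadjusted p under 0.05, 14 were lower and 0 higher. DESeq2 called 5 lower and 0 higher, and limma-voom 9 and 0. The 4 with the smallest p were Ndufa7, Ndufa3, Ndufa13 and Ndufb8, all accessory subunits. They changed by -0.55 ± 0.11, -0.49 ± 0.11, -0.43 ± 0.10 and -0.35 ± 0.09 (SE; edgeR adjusted p = 0.00336, 0.00561, 0.0130 and 0.0271). The 8 also held the core subunit genes Ndufs1 at -0.38 (edgeR adjusted p = 0.0358) and Ndufv1 at -0.34 (0.0448), named after their values were seen. When libraries were scaled by total counts, 2 nuclear subunit genes were higher and 0 lower, against 1385 higher and 74 lower of all 8531 tested genes. The median of the nuclear subunit genes was then 0.12, below the 0.29 of all genes.

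The mitochondrial complex I messages gave 21.0, 21.1 and 20.5 counts per count of the nuclear subunit genes in the control libraries, against 16.3, 16.6 and 16.9 after treatment. The groups were separate, with means of 20.9 ± 0.326 and 16.6 ± 0.304 (SD, n = 3; exact permutation p = 0.1, adjusted 0.175). This ratio was added after the data were seen.

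Assembly factors of complex I and factors of mitochondrial gene expression did not pass. Of 14 tested assembly factor genes edgeR called 0, with 2 lower and 0 higher at an unadjusted p under 0.05, and DESeq2 and limma-voom called 0. Of 23 tested genes for transcription, processing and stability of mitochondrial RNA edgeR called 0, with 3 lower and 0 higher at an unadjusted p under 0.05, and the other tools called 0. Their medians were -0.13 and 0.01. Lrpprc, which stabilises mitochondrial messages, differed by -0.34 ± 0.12 (edgeR adjusted p = 0.102), Tfam, which packages and transcribes mitochondrial DNA, by 0.17 ± 0.20 (0.744), and Fastk, needed for the ND6 message in mouse, by -0.09 ± 0.13 (0.788). These 3 were chosen after their values were seen. When libraries were scaled by total counts, 1 assembly factor gene and 2 expression factor genes were higher, with medians of 0.17 and 0.31. At that scaling 1385 of all 8531 tested genes were higher, with a median of 0.29.

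Heart tissue was checked by 12 cardiomyocyte markers, all of them tested, which summed to between 62242 and 65770.5 CPM in controls and 55349 and 59606 CPM in treated hearts. Of these 5 were lower, 2 higher and 5 not called. Scaled by total counts, 5 were higher and 0 lower, against 1385 higher and 74 lower of all 8531 tested genes. In bulk tissue, fewer cells of a type and less RNA per cell cannot be told apart. Complex I messages gave 5.15, 5.77 and 4.59 counts per cardiomyocyte marker count in the control libraries, against 3.84, 3.91 and 4.12 after treatment, again without overlap. This ratio was not among the planned comparisons and was not tested.

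Among markers of other cells, those called for fibroblasts and macrophages were all higher in treated hearts. Of 9 tested fibroblast markers 5 were higher and 0 lower, and the 10 listed summed to between 923 and 1313 CPM in controls and 1558 and 2039 in treated hearts. Of 9 tested macrophage markers 5 were higher and 0 lower, and the 10 listed summed to between 165 and 209 CPM in controls and 339 and 404 in treated hearts. No marker of these 2 lists was at 0 in all libraries. Their part in the change of complex I messages was not tested. Of 10 endothelial markers 0 were called in either direction by edgeR, DESeq2 or limma-voom. At an unadjusted edgeR p under 0.05, 4 were lower and 1 higher. Of 7 tested smooth muscle and pericyte markers edgeR called 1 higher and 1 lower, and 5 were not called. For 5 erythroid markers edgeR called 0, with 2 lower and 0 higher at that unadjusted limit. The skeletal muscle genes Myh1, Myh2 and Myh4 and the fat genes Ucp1, Adipoq and Plin1 were at 0 counts in all 6 libraries. The 7 listed skeletal muscle genes summed to between 1.99 and 3.17 CPM in controls and between 0.659 and 1.54 CPM after treatment. None of those 7 had enough counts to be tested. The 5 listed brown fat genes, which include Cox8b and Cidea, summed to between 458 and 667 CPM in controls and between 450.0 and 499 CPM after treatment.

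Genes outside the mitochondrial genome were ranked by how closely their log2 CPM over the 6 libraries, centred on its mean, followed that of the summed complex I messages. Of 3583 genes with a mean of at least 20 CPM, Spag7, Ivns1abp, Myzap, Ank2 and Prdx5 lay nearest. Their root mean square differences were 0.0333, 0.0402, 0.0432, 0.0548 and 0.0563 on the log2 scale, against a median of 0.321 over all ranked genes. The genes were picked by this same distance, so the gap to the median follows from the choice and is not a test. Myzap encodes a protein of the cardiac intercalated disc, Ank2 the membrane adaptor ankyrin-B and Prdx5 a peroxiredoxin found in mitochondria.

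Over all 13 mitochondrial messages the log2 change on all counts had a Spearman rho of -0.43 with order along the genome, 0.53 with control CPM, 0.24 with the percentage of A and 0.03 with length. The messages share their libraries and are not independent, so these are descriptions. The log2 values nearest 0, those of the uncalled mt-Nd2 and mt-Nd3, and the lowest, those of mt-Nd4l and mt-Nd5, all belong to complex I messages. Messages of other complexes stood close to some of these. For mt-Atp8 the value was -0.74 ± 0.10 (SE), near the -0.82 ± 0.10 of mt-Nd5. For mt-Atp6 and mt-Co2 it was -0.46 ± 0.09, near the -0.35 ± 0.11 of mt-Nd3.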

How the data were processed

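Total RNA of 6 hearts was sequenced from the 3′ end, per the labels' protocols. Per the file headers, the deposited table holds total counts for each gene and a signal under the heading CPM. By their values, the counts are whole numbers, and the signal was taken as the counts times 1 constant per library. The signal served only as alternative library sizes. The submitters' processing notes name bcl2fastq and GRCm39. Aligner, counter, strand setting and molecular identifiers: not given in the sources used here. Copies of mitochondrial sequence in nuclear chromosomes could share reads. Ribosomal and transfer RNA genes of the mitochondrial genome were not analysed here.

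Low genes were removed by filterByExpr at a minimum count of 10 and a minimum total of 15. TMM factors ran from 0.858 to 1.15. Groups were then compared in R 4.3.3 with edgeR 4.0.16 (glmQLFit, glmQLFTest, 1 factor for group, Benjamini-Hochberg over 8531 genes, threshold 0.05). Each SE was taken as the size of the log2 change divided by the root of its F statistic. The mitochondrial scale used summed mitochondrial counts as library sizes on the same genes. Shares and ratios were compared by exact two-sided permutation. DESeq2 1.42.0 and limma 3.58.1 (voom) were alternatives. The fits were also run on simulated counts with changes planted only in nuclear genes, which cannot test calls of the mitochondrial messages.

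Pairs of libraries of 1 group gave a chi-square of 2.10 to 3.42 for each degree of freedom, so no library was a copy of another. The members, gene lists and tests were chosen with earlier results of these data known. Named genes were the 7 members, the other mitochondrial messages, up to 4 called genes of each pathway list with the smallest p in each direction, and the 5 genes nearest in profile (log2 of CPM plus 0.5). Other genes named are those marked as chosen after their values were seen and cell markers. The assembly factor gene Coa1 was not matched.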

Additional observations from a re-analysis of the deposited data

How the results depend on the processing

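On all counts, 4 to 6 members were called lower under all 16 alternatives, and none of the 7 changed direction in any of them. The same calls of mt-Nd1, mt-Nd4, mt-Nd4l and mt-Nd5 held throughout. The replicate numbers are not stated to pair the hearts. The deviations of same-numbered libraries correlated at 0.059, -0.034 and -0.014 over 8531 genes. With 3 libraries a group, such values cannot show whether the numbers pair mice. With the replicate number as a block 6 members were called lower on all counts, with mt-Nd2 at -0.31 and mt-Nd3 at -0.35 (edgeR adjusted p = 0.0420 and 0.0279). The block left the calls on the mitochondrial scale as they were, and an exact sign-flip test within numbers gave p = 0.75 for the complex I share of mitochondrial counts and for the ratio to complexes III to V.

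On the mitochondrial scale 2 to 3 members were called lower. The number called higher was 1, but 0 with DESeq2, and 0 to 2 with 1 library left out. The share of mt-Nd6 differed by between -0.000692 and 0.00016 percentage points with 1 library left out (2.12e-05 without ISO+L-NAME 2), its log2 difference on that scale was 0.0968 without ISO+L-NAME 1 and 0.0039 without ISO+L-NAME 2 (-0.51, the lowest, without ISO+L-NAME 3), and its count per mt-Nd5 count differed by between -0.000185 and 0.000359. Leaving mt-Nd4 out, a choice made after seeing the data, turned the difference in complex I share to 1.24 percentage points and that of mt-Nd1 to -0.0657. The mt-Nd4 share itself differed by -1.91 percentage points. The cause of these changes was not tested. The planned setting with 13 protein-coding messages alone equals the main one, because the table lists no other mitochondrial row.

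Counts are lowest for mt-Nd6, with at most 36 counts a library against at least 6019 for the others. The replicates are 3 mice a group.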
